A study of Mus musculus with 46 samples.

Results

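Among 46 AB1-HA tumors of the series, 26 were resected before any drug was given, and these 26 were divided into 13 T cell-rich and 13 T cell-poor tumors whatever their later response. The division used the RNA of 3 genes, Cd3d, Cd3e and Cd3g, which encode chains of the CD3 complex that accompanies the T cell receptor. Counts were divided by the column sum of the table and multiplied by 1000000 (CPM), and the score of a tumor was the mean of log2(CPM + 1) of the 3 genes. AB1-HA is a murine mesothelioma line that carries influenza haemagglutinin, so all tumors derived from 1 cell line. Male BALB/c mice of 8 to 10 weeks bore a subcutaneous tumor on each flank. 1 tumor per mouse was taken 9 days after inoculation, which was 1 day before 200 mg/kg cyclophosphamide (CY), and the other was left to show the response. Mice were labelled complete responders (CR) or progressors (PR), which the labels name partial responders. A further 20 tumors came from other mice 3 or 7 days after the same dose of CY, with 5 CR and 5 PR on each day. The rule did not use them.

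T cells recognise peptides held on MHC molecules. CD8 T cells and natural killer (NK) cells kill with granzymes, while CD4 T cells include helper cells and the Foxp3-positive regulatory T cells that restrain them. Activated T cells and NK cells secrete interferon gamma, which switches on guanylate-binding proteins, antigen presentation, PD-L1 and the chemokines that attract CXCR3-positive lymphocytes. In bulk RNA, fewer cells of a type and less RNA per cell cannot be told apart.

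Column totals were between 10390150 and 13952879 counts in the T cell-rich tumors and between 10227681 and 14218987 counts in the T cell-poor tumors, and the factors of the trimmed mean of M-values (TMM) normalization lay between 0.982 and 1.017. The score was 3.01 at its lowest, 3.24 at its median and 3.95 at its highest in the T cell-rich tumors. It was 1.68, 2.53 and 2.94 in the T cell-poor tumors. The last tumor inside the T cell-rich group and the first outside it, both CR, had scores of 3.01 and 2.94, a gap of 0.0741 where the means of the groups were 0.895 apart. The division therefore ran through a continuous range.

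**Figure D1:**
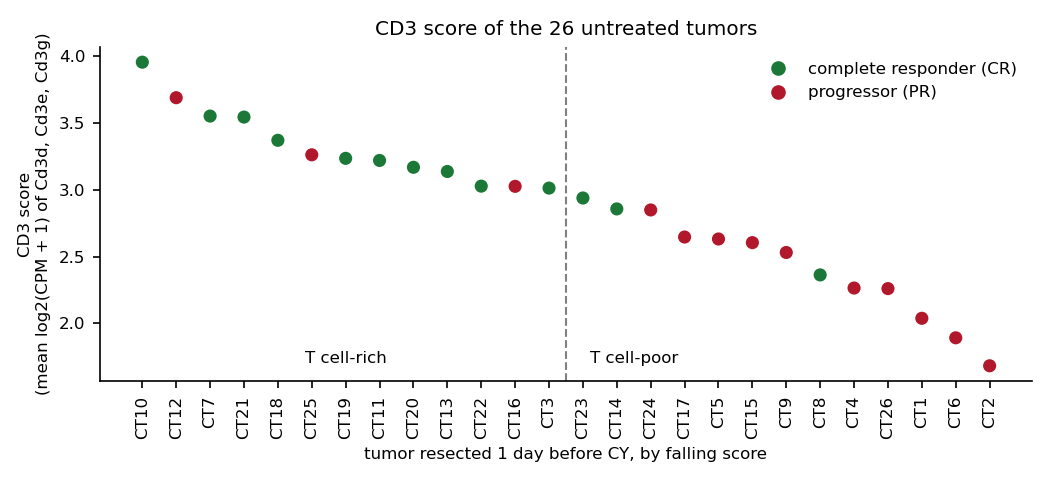
Score of each of the 26 untreated tumors (mean log2(CPM + 1) of Cd3d, Cd3e and Cd3g), ordered from highest to lowest, with the colour giving the later response to CY and the dashed line the boundary between the groups. Scores fall without a step at the boundary, and CR tumors make up 10 of the 13 on the T cell-rich side and 3 of the 13 on the other.

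The T cell-rich group held 10 CR and 3 PR tumors, and the T cell-poor group held 3 CR and 10 PR tumors (two-sided Fisher's exact test, p = 0.0169). Without the 8 tumors nearest the boundary the counts were 7 CR and 2 PR against 1 CR and 8 PR (two-sided Fisher's exact test, p = 0.0152). That T cell RNA went with response was known when the division was chosen, so the test is a description. A score of other T cell genes moved 2 tumors across the boundary and gave the same 4 counts. Because response and group went together, the gene differences between groups at day −1 and over the later days were also fitted with the response label as a covariate.

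Of 10774 genes tested at day −1, 1357 were higher in T cell-rich tumors (12.6%) and 1117 were lower (10.4%) at a false discovery rate (FDR) below 0.1. The higher genes moved further than the lower ones. Their median difference was 0.50 on the log2 scale against −0.13 for the lower genes, and 118 higher genes but 4 lower genes changed at least 2-fold. The 4 were Adamts16, Col10a1, Gm10925 and Gm20507, named because they were so few. Groups did not overlap at all for 29 genes, 0.269% of those tested, and each of the 29 was higher in T cell-rich tumors. Genes of the skeletal muscle list were also higher in the T cell-rich group (12 of 15 tested), and with a score of muscle genes as a covariate 518 genes passed as higher and 58 as lower. With the response label as a covariate 826 passed as higher and 268 as lower. With a B cell score 152 passed, 149 of them as higher, and 24 of the 149 were interferon gamma response genes, while no other list had more than 5 genes passing. The part of these tissues and cells in the differences was not tested.

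Interferon gamma response genes had the largest median difference of the 35 gene lists. All 27 tested of the 28 on the list were higher in T cell-rich tumors, with a median of 1.43 on the log2 scale against −0.02 over all genes tested. The 27 also passed with the response label as a covariate, and 26 passed with the muscle score. Ifng itself, which encodes interferon gamma, ranged from 0.701 to 5.10 CPM in T cell-rich tumors (median 1.22) and from 0.0772 to 0.949 CPM in T cell-poor tumors (median 0.476), which rested on 8 to 53 counts against 1 to 12 counts per tumor. Its log2 difference was 1.93 ± 0.34 (SE, n = 13 per group, adjusted p = 0.000252). The groups overlapped only where the 3 highest T cell-poor tumors reached the lowest of the other group.

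Cxcl9, a chemokine that draws CXCR3-positive T cells, stood at 85.8, 205 and 511 CPM (lowest, median and highest) in T cell-rich tumors and at 24.01, 46.4 and 132 CPM in T cell-poor tumors. The log2 difference was 2.14 ± 0.28 (adjusted p = 2.69e-05). 3 T cell-poor tumors lay above the lowest T cell-rich tumor. Cxcl10, its close relative, was at 49.4, 82.2 and 166 CPM against 25.1, 39.6 and 62.9 CPM, a log2 difference of 1.17 ± 0.18 (adjusted p = 7.01e-05). The receptor of both, Cxcr3, was higher by 1.04 ± 0.16 on the log2 scale, although as a T cell gene it describes the same cells as the score.

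Guanylate-binding proteins are interferon-induced GTPases of cell-autonomous defence. Gbp10 was at 11.2, 24.7 and 71.3 CPM in T cell-rich tumors and at 4.23, 7.06 and 12.5 CPM in T cell-poor tumors, a log2 difference of 2.18 ± 0.27 (adjusted p = 2.69e-05). Gbp11, which RefSeq lists as a transcribed pseudogene, had 5.70, 9.98 and 24.3 CPM against 1.66, 3.70 and 5.19 CPM, and the log2 difference was 1.84 ± 0.23. Every T cell-rich tumor was above every T cell-poor tumor for Gbp11, whereas Gbp10 overlapped in 2 T cell-poor tumors. Gbp8 had a log2 difference of 1.93 ± 0.25. These genes lie in the same region of chromosome 5 of GRCm38.p6 (Gbp8 at chr5:105012513-105053609, Gbp10 at chr5:105215699-105239533 and Gbp11 at chr5:105323026-105346476). They are near copies of one another, so how their reads were shared out is uncertain.

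Promoter letters of interferon gamma response genes are shown because the genes of that list moved together. The sequences are from RefSeq (GRCm38.p6), the 250 bases before the annotated start on the gene's strand. Capitals mark matches on either strand to the gamma-activated site TTCNNNGAA (GAS) or to the interferon-stimulated response element (ISRE), here GAAA and GAAA parted by NN, which interferon regulatory factors bind. Windows were held for 14 of the tested list genes (17 windows). A GAS match was found in 7 of the 17 windows (41.2%) and an ISRE match in 8 (47.1%), while 7.02% and 2.98% of all 32851 promoter windows of that length held one. The windows of Cxcl9, Cd274 and Il18bp held neither. A match is a description of letters and not a bound site. The 3 printed windows belong to Gbp5 (chr3:142496684-142496933, plus strand), Igtp (chr11:58199306-58199555, plus strand) and Irf1 (chr11:53769764-53770013, plus strand).
Gbp5: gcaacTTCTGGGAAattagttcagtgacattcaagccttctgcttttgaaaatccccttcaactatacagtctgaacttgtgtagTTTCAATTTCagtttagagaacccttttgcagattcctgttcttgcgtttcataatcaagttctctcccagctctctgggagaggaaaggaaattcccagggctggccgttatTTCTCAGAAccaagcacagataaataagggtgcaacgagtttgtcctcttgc
Igtp: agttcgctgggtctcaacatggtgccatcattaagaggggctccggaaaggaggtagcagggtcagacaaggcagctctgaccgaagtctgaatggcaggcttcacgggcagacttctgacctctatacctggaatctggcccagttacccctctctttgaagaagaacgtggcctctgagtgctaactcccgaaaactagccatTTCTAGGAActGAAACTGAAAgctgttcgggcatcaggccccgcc
Irf1: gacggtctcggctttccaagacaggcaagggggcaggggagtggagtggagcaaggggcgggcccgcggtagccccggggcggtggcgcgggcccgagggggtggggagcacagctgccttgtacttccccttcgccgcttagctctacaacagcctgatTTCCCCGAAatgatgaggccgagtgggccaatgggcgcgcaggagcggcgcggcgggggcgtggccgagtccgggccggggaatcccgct
The ISRE match of Gbp5 reads on the opposite strand and begins 165 bases before the start, and 1 of its GAS matches begins 52 bases before it. In Igtp the GAS and ISRE matches begin 45 and 34 bases before the start. In Irf1 a single GAS match begins 90 bases before it, and the second annotated window of Irf1 held none.

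Gbp5, the guanylate-binding protein of the first window, was at 44.4, 84.1 and 201 CPM in T cell-rich tumors and at 19.4, 32.8 and 58.4 CPM in T cell-poor tumors, a log2 difference of 1.58 ± 0.22. Igtp, an immunity-related GTPase, was at 98.4, 206 and 579 CPM against 46.5, 83.3 and 149 CPM, a log2 difference of 1.64 ± 0.25 (adjusted p = 5.7e-05). Irf1, a transcription factor of the interferon response, was at 198, 273 and 522 CPM against 120.3, 164 and 232 CPM, a log2 difference of 0.92 ± 0.13. All 3 overlapped between groups, and in each all 13 T cell-rich tumors were above the T cell-poor median. They were named for their windows after their values were seen.

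Type I interferon response genes, which viral infection switches on, were also higher. Of 26 tested, 24 were higher, with a median of 0.49, and 15 passed with the muscle score as a covariate, 2 with the B cell score and 0 within the tumors titled above CT14 (each by edgeR's quasi-likelihood test). Parp14, an ADP-ribosyltransferase, was higher by 0.76 ± 0.12 and Ifih1, the cytosolic sensor MDA5, by 0.64 ± 0.10 on the log2 scale. No difference of this list against the interferon gamma list was tested.

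**Figure D2:**
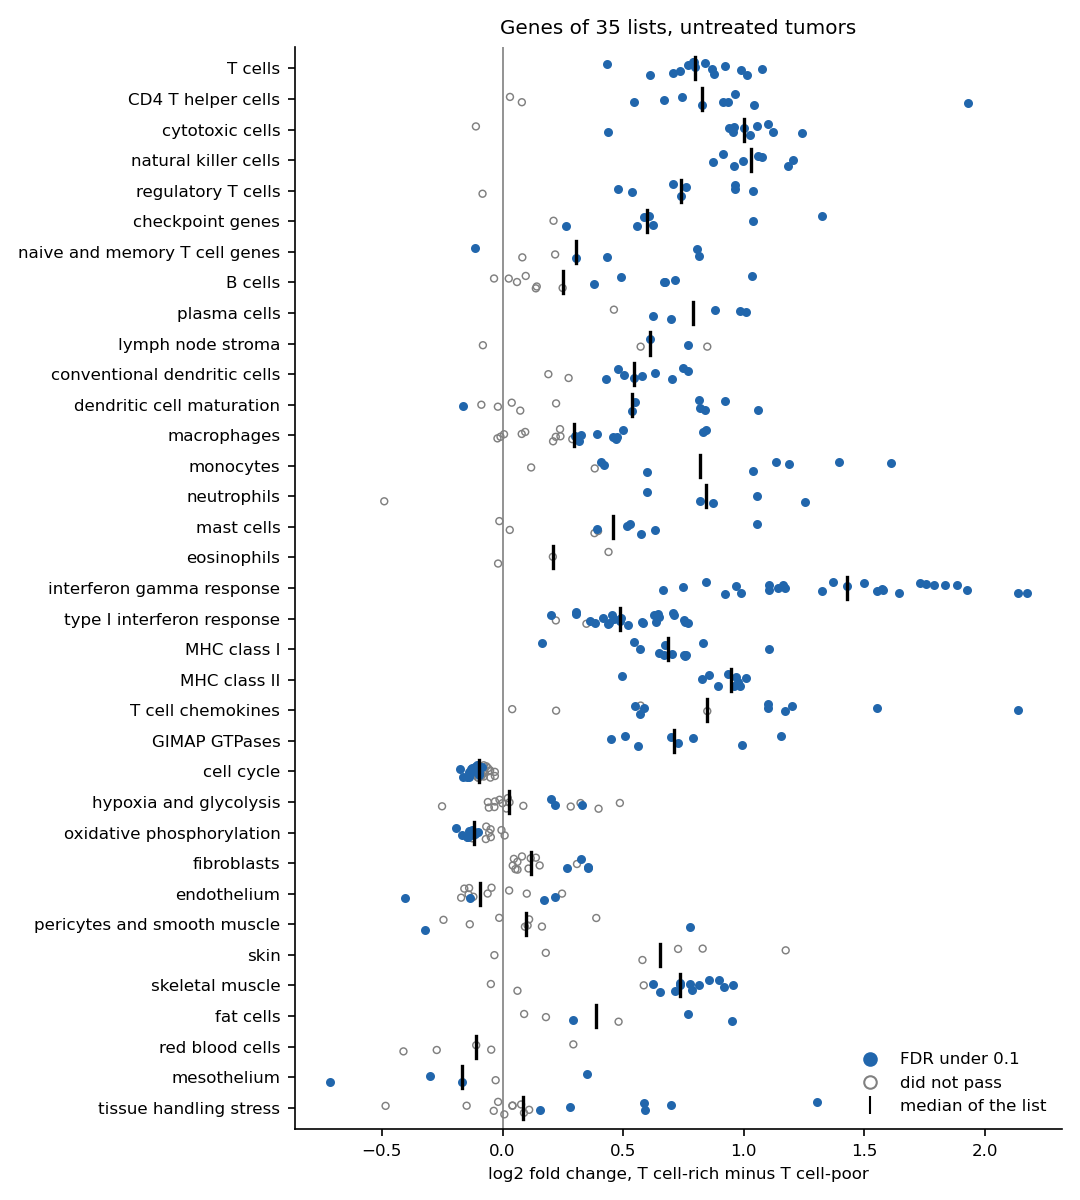
Log2 difference between T cell-rich and T cell-poor untreated tumors for each tested gene of the lists, with filled points for FDR below 0.1 and bars at each list's median. The interferon gamma list has its median at 1.43, lymphocyte lists lie between 0.25 and 1.03, and the cell cycle and oxidative phosphorylation lists lie just below 0 at −0.10 and −0.12.

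T cell genes outside the rule describe the same cells as the score, so their direction was given by the division and supports nothing further. All 15 on the T cell list were higher, with a median of 0.80. Cd2, an adhesion receptor, was at 10.90, 14.9 and 27.8 CPM in T cell-rich tumors and at 3.42, 7.61 and 10.87 CPM in T cell-poor tumors, and the groups did not overlap. Lck, the kinase that starts T cell receptor signalling, was at 23.1, 27.3 and 45.9 CPM against 13.0, 18.04 and 27.8 CPM. All 8 GIMAP GTPases, lymphocyte survival proteins, were higher with a median of 0.71.

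Both T cell lineages were higher. Cd8a, a chain of the CD8 co-receptor, was at 5.04, 8.66 and 21.2 CPM in T cell-rich tumors and at 2.56, 4.35 and 9.65 CPM in T cell-poor tumors, a log2 difference of 1.06 ± 0.21. Cd4, the co-receptor of helper and regulatory T cells, was at 13.0, 21.4 and 32.4 CPM against 5.54, 13.6 and 20.3 CPM, a log2 difference of 0.75 ± 0.16. The groups overlapped for both. Of the CD4 helper list 9 of 11 tested genes were higher, among them Cxcr6, Cxcr3 and Il18r1, while Il4 and Gata3 did not pass. With the B cell score as a covariate 3 of the 11 passed, and 3 passed within the tumors titled above CT14.

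Regulatory T cell genes were higher as well, in 8 of 9 tested with a median of 0.74. Of the 9, 1 passed with the B cell score as a covariate and 1 within the tumors titled above CT14. Foxp3, the transcription factor that defines these cells, was at 18.2, 24.7 and 35.5 CPM in T cell-rich tumors and at 6.30, 15.1 and 22.1 CPM in T cell-poor tumors, a log2 difference of 0.76 ± 0.15. Il2ra, the high-affinity interleukin-2 receptor chain CD25, was at 29.8, 37.2 and 55.2 CPM against 13.2, 20.8 and 28.5 CPM, and its groups did not overlap. Ikzf2 and Ccr8, a transcription factor and a chemokine receptor of regulatory T cells in tumors, were higher by 0.74 ± 0.13 and 0.96 ± 0.18 on the log2 scale.

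Genes of killing were higher in T cell-rich tumors. Of 11 cytotoxic genes tested, 10 were higher, with a median of 1.0. With the B cell score as a covariate 4 of the 11 passed, and 2 passed within the tumors titled above CT14. Gzmb, a granzyme, was at 14.1, 23.9 and 45.6 CPM in T cell-rich tumors and at 8.80, 13.4 and 18.5 CPM in T cell-poor tumors, a log2 difference of 1.0 ± 0.15. Nkg7, a granule membrane protein, was at 5.78, 9.00 and 17.9 CPM against 2.08, 4.70 and 7.60 CPM. Gzmc, the exception, did not pass.

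NK cell genes are not part of the T cell receptor complex, although T cells transcribe some of them. All 8 tested were higher, with a median of 1.03. With the B cell score as a covariate 3 of the 8 passed, and 2 passed within the tumors titled above CT14. Ncr1, the NK receptor NKp46, was at 8.89, 13.6 and 27.6 CPM in T cell-rich tumors and at 4.78, 7.38 and 11.7 CPM in T cell-poor tumors, a log2 difference of 1.0 ± 0.16 (adjusted p = 9.84e-05). Klre1, a lectin-like receptor of NK cells, was at 3.89, 6.27 and 10.7 CPM against 1.67, 2.98 and 3.72 CPM, with no overlap between groups. Klrk1, which encodes NKG2D, did not overlap either.

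Among inhibitory receptors and their ligands 7 of 8 tested were higher, with a median of 0.60. Of the 8, 1 passed with the B cell score as a covariate and 0 within the tumors titled above CT14. Cd274, which encodes PD-L1, was at 30.6, 51.2 and 117 CPM in T cell-rich tumors and at 15.4, 24.3 and 36.1 CPM in T cell-poor tumors, a log2 difference of 1.33 ± 0.18 (adjusted p = 3.12e-05). 3 T cell-poor tumors lay above the lowest T cell-rich tumor. Ctla4, the receptor that competes with CD28, was higher by 1.04 ± 0.17, and Havcr2, which encodes TIM-3, by 0.56 ± 0.11.

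To ask whether the make-up of the T cell RNA differed as well as its amount, 6 differences between pairs of log2 CPM values were compared between groups by two-sided permutation tests of 100000 permutations. Cd8a minus Cd4 was −1.26 ± 0.524 (SD, n = 13) in T cell-rich and −1.46 ± 0.424 in T cell-poor tumors, a difference of 0.20 (permutation p = 0.287, adjusted p = 0.575). Foxp3 minus Cd4 was 0.23 in both groups (permutation p = 0.982). Ctla4 minus Cd4 was higher by 0.27 in T cell-rich tumors, above the T cell-poor median in 11 of 13 (permutation p = 0.0415, adjusted p = 0.151).

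Among the values set against Cd8a, Lag3 minus Cd8a had a difference of −0.40, with 2 of 13 T cell-rich tumors above the T cell-poor median (permutation p = 0.0504, adjusted p = 0.151). Gzmb and Nkg7 minus Cd8a had differences of −0.04 and 0.10 (permutation p = 0.835 and 0.502). None of the 6 passed after adjustment, which does not show that the make-up was alike.

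**Figure D3:**
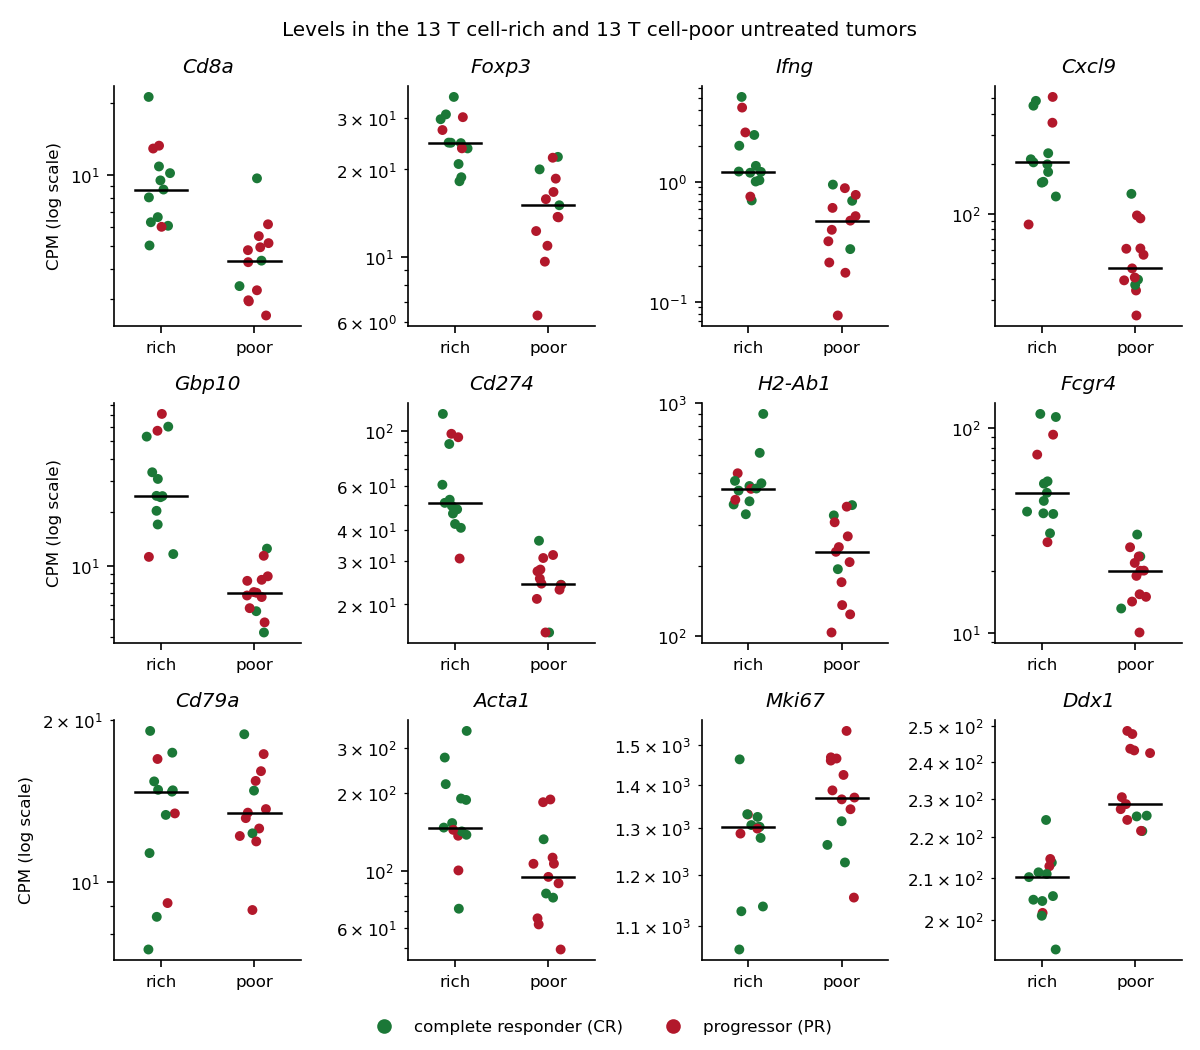
Log-scale CPM of 12 genes in each of the 26 untreated tumors by group, with the line at the median and the colour giving the later response. Cxcl9, Gbp10 and Fcgr4 separate the groups almost fully, Cd79a overlaps throughout with medians of 14.7 and 13.5 CPM, and Ddx1 is slightly lower in T cell-rich tumors.

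Antigen presentation genes were higher for both classes. All 12 MHC class I genes passed with a median of 0.69. Nlrc5, the regulator that switches the class I genes on, was at 85.4, 150 and 247 CPM in T cell-rich tumors and at 44.9, 67.04 and 134 CPM in T cell-poor tumors, a log2 difference of 1.11 ± 0.16. H2-T23, a nonclassical class I molecule, was higher by 0.83 ± 0.12. Class I genes of the H2 cluster are near copies, so how their reads were shared out is uncertain.

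All 10 MHC class II genes tested were higher with a median of 0.95. With the B cell score 1 passed and the median was 0.51, and 1 passed within the tumors titled above CT14. H2-Ab1, a class II chain, was at 333, 429 and 898 CPM in T cell-rich tumors and at 103, 229 and 364 CPM in T cell-poor tumors, a log2 difference of 1.01 ± 0.18 (adjusted p = 0.000275). Cd74, the invariant chain that escorts class II molecules, was at 844, 1126 and 2449 CPM against 307, 595 and 918 CPM. Ciita, the master regulator of class II genes, was higher by 0.97 ± 0.17.

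Myeloid genes did not move as 1 group. Monocyte genes were higher in 8 of 10, with a median of 0.82. Fcgr4, an activating Fc receptor, was at 27.7, 48.2 and 117 CPM in T cell-rich tumors and at 10.0, 20.1 and 30.1 CPM in T cell-poor tumors, a log2 difference of 1.61 ± 0.22 (adjusted p = 3.12e-05). Ly6c2, a marker of inflammatory monocytes, was higher by 1.40 ± 0.23. Ly6c2 has a near copy in Ly6c1, so how their reads were shared out is uncertain.

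The macrophage list was higher in 10 of 20 genes with a median of 0.29, and in 3 of 20 with the muscle score as a covariate. Csf1r, the receptor on which macrophages depend, was at 573, 654 and 816 CPM in T cell-rich tumors and at 564, 612 and 661 CPM in T cell-poor tumors, a log2 difference of 0.09 ± 0.04 that did not pass (adjusted p = 0.145). Fcgr1, the high-affinity Fc receptor, did not overlap between groups and was higher by 0.83 ± 0.12. C1qa, a complement subunit of tissue macrophages, was higher by 0.47 ± 0.11 and did not pass with the muscle score.

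Conventional dendritic cell genes were higher in 9 of 11, with a median of 0.54. Of the 11, 4 passed with the muscle score as a covariate, 1 with the B cell score and 2 within the tumors titled above CT14. Irf8, a transcription factor of the dendritic cells that present to CD8 T cells, was at 70.3, 73.0 and 128 CPM in T cell-rich tumors and at 28.2, 52.4 and 68.6 CPM in T cell-poor tumors without overlap. Irf8 is also on the interferon gamma list. Of 13 maturation genes 7 were higher, among them Cd40, which receives T cell help, at 0.82 ± 0.11, and Ccr7, which guides mature cells to lymph nodes, at 0.82 ± 0.14. Anxa3 was the 1 gene of that list that fell, at −0.16. Neutrophil genes were higher in 5 of 6 tested and mast cell genes in 6 of 10, with Hdc, the histamine-forming enzyme, on both lists.

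B cell genes gave a mixed picture. Cd79a, a chain of the B cell receptor, was at 7.48, 14.7 and 19.1 CPM against 8.86, 13.5 and 18.8 CPM, a log2 difference of −0.04 ± 0.13 (adjusted p = 0.888). 6 of 13 tested B cell genes were higher. They included Fcrla, an Fc receptor-like protein of B cells, which was higher by 0.67 ± 0.15 with all 13 T cell-rich tumors above the T cell-poor median, and Blk, Cd72 and Cxcr5, which other leukocytes also transcribe. With the muscle score 1 of the 13 passed, Cd72. The summed CPM of 5 B cell markers ranged from 11.4 to 23.1 in T cell-rich and from 11.2 to 23.03 in T cell-poor tumors.

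Immunoglobulin genes were also higher. 5 of 6 plasma cell genes tested were higher with a median of 0.79, among them Jchain, which joins immunoglobulin polymers, at 0.98 ± 0.20, and Igkc, the kappa light chain, at 0.88 ± 0.23, which did not pass with the muscle score. Lymph node stroma was checked because a node taken with a tumor would carry T cells. 2 of 5 tested node genes were higher, Bst1 by 0.77 ± 0.14 and Enpp2, the enzyme autotaxin, by 0.61 ± 0.15, and 1 of the 5 passed with the muscle score. Neither is among the 6 node markers summed below. Of those markers, Cxcl13 was at 0.85 ± 0.38 (adjusted p = 0.126) and Ccl21a at 0.57 ± 0.40 (adjusted p = 0.350), and neither passed. Cxcl13 had medians of 6.14 CPM in T cell-rich and 3.03 CPM in T cell-poor tumors. Ccl19, a chemokine that draws T cells into nodes, was not tested, with medians of 1.36 CPM in T cell-rich and 0.386 CPM in T cell-poor tumors. Glycam1, made by the high endothelial vessels of nodes, was between 0 and 1.03 CPM in T cell-rich and between 0 and 0.346 CPM in T cell-poor tumors, and was at 0 in 2 tumors of each group. The summed CPM of 6 node markers ranged from 5.91 to 19.5 against 1.55 to 17.8, with medians of 12.1 and 5.19. Its part in the T cell differences was not tested.

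Some nonimmune tissue moved with the groups. Acta1, skeletal muscle actin, was at 71.3, 147 and 349 CPM in T cell-rich tumors and at 49.6, 94.8 and 189 CPM in T cell-poor tumors, a log2 difference of 0.74 ± 0.21 (adjusted p = 0.0181). None of the 12 muscle genes passed with the response label as a covariate. Krt5, a keratin of skin, was between 0 and 192 CPM in T cell-rich and between 0 and 138 CPM in T cell-poor tumors (log2 difference 0.58 ± 0.98, adjusted p = 0.744), and without the 10 tumors above 10 CPM, 5 in each group and all of them titled above CT14, 1977 genes passed. Fat cell genes were higher in 3 of 6 tested, among them Cfd, the adipocyte protease adipsin, at 0.95 ± 0.28, and none passed with the muscle score or with the response label. Hbb-bs, a globin of red blood cells, did not pass. Of the tissue handling genes 6 of 16 were higher, among them Hspa1a, a heat shock protein, at 1.30 ± 0.40, which did not pass with the muscle score. Their part in the other differences was not tested.

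Structural stroma genes went in both directions, where 12.6% of all genes tested were higher and 10.4% lower. Of 15 fibroblast genes 4 were higher, among them Dcn, the matrix proteoglycan decorin, at 0.35 ± 0.09, while Col1a1, a chain of type I collagen, was at 0.06 ± 0.09 (adjusted p = 0.699). Dcn did not pass with the muscle score or with the response label. Endothelial genes were higher in 2 and lower in 2 of 14, with Cldn5, a tight junction protein of vessels, at −0.40 (adjusted p = 0.074). On the pericyte and smooth muscle list Des was higher by 0.78 ± 0.20 (adjusted p = 0.00682) and Cspg4 was at −0.32 ± 0.11 (adjusted p = 0.0527). Hypoxia and glycolysis genes were higher in 3 of 18, with a median of 0.03.

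Genes that were lower in T cell-rich tumors changed little. Ddx1, an RNA helicase, had the smallest p among them and was at 193, 210.2 and 224 CPM in T cell-rich tumors and at 222, 229 and 249 CPM in T cell-poor tumors, a log2 difference of −0.16 ± 0.03 (adjusted p = 6.8e-05). The groups touched at their edges. Cell cycle genes were lower in 18 of 39, with a median of −0.10 and none higher. Bub1b, a mitotic checkpoint kinase, was lower by a log2 difference of −0.15 ± 0.04 (adjusted p = 0.00502), and Mki67, the proliferation marker Ki-67, did not pass at −0.10 ± 0.05 (adjusted p = 0.126). Oxidative phosphorylation genes were lower in 10 of 18, among them Atp5a1, a subunit of ATP synthase, at −0.13 ± 0.03.

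With the muscle score as a covariate none of the cell cycle and none of the oxidative phosphorylation genes passed, and with the response label 2 of 39 and 8 of 18 did. Of all 10774 genes tested, 58 passed as lower with the muscle score and 268 with the response label. So few lower genes passed with the muscle score that its counts of 0 do not set these lists apart. Mesothelium genes were lower in 3 and higher in 1 of 5 tested. Msln, which encodes the mesothelioma surface protein mesothelin, was at 288, 349 and 420.2 CPM in T cell-rich tumors and at 341, 405 and 585 CPM in T cell-poor tumors, a log2 difference of −0.30 ± 0.09 (adjusted p = 0.016). Krt8, a keratin of mesothelial and other epithelia, was at −0.72 ± 0.23 and Cdh2, which encodes N-cadherin, at −0.17 ± 0.04. None of the 3 passed with the muscle score, and of the 3 Cdh2 alone passed with the response label. Aldh1a2, a retinoic acid-forming enzyme of mesothelium, went the other way, at 0.35 ± 0.145 (adjusted p = 0.0996), and passed in 7 of the 26 fits that left out 1 tumor. These values are relative to a total to which leukocytes also contribute, and the share of tumor cells was not measured.

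The tumors whose response went against their group did not lie together. Of the 3 T cell-rich PR tumors, CT12 had 4.16 CPM of Ifng, 511 CPM of Cxcl9 and 94.0 CPM of Cd274, and CT25 had 2.58, 356 and 97.0 CPM of the same genes. CT16 had 0.755 CPM of Ifng and the lowest Cxcl9 (85.8 CPM) and Cd274 (30.6 CPM) of the T cell-rich group. So 2 of these PR tumors were among the 4 highest of all 26 for Ifng, Cxcl9, Gbp10, Gbp11 and Cd274, beside the CR tumors CT10 and CT21, and the third was the lowest of its group for these genes except Ifng, for which CT19 was lower.

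Of the 3 T cell-poor CR tumors, CT23 was the highest T cell-poor tumor for Ifng, Cxcl9, Gbp10 and Cd274, with 0.949, 132, 12.5 and 36.1 CPM. CT8 was the lowest T cell-poor tumor for Gbp10 and Cd274, with 4.23 and 15.4 CPM. CT14 lay between them, with 39.7 CPM of Cxcl9 and 24.01 CPM of Cd274. These tumors were picked by their labels and no test was made of them.

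The tumor titles run in 2 sets, up to CT14 and above it, and the groups shared them almost evenly (6 T cell-rich and 8 T cell-poor against 7 and 5). Within the first set 1032 genes passed as higher and 459 as lower, and within the second 93 and 4. The interferon gamma list had medians of 1.72 and 1.09 in the 2 sets, and 27 and 1 of its 27 genes passed. No list had more than 4 genes passing as higher in the second set, in which 10 of 12 tumors had over 10 CPM of Krt5, against none in the first. The part of skin in that loss was not tested. What the sets stand for is not given in the labels. Leaving out 1 tumor at a time gave between 1828 genes, without CT10, and 2735 genes, without CT14. The count of lower genes moved further, from 1117 to 626 without CT1, 641 without CT10, 675 without CT2 and 701 without CT6.

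The same rule was then applied within day +3 and within day +7, where the 5 tumors with the highest scores were set against the 5 lowest. Mean scores of the T cell-rich and T cell-poor tumors were 2.96 and 2.37 at day +3 and 5.13 and 4.14 at day +7. At day −1 they were 3.32 and 2.43. The T cell-rich tumors held 3 CR and 2 PR at day +3 and 4 CR and 1 PR at day +7 (two-sided Fisher's exact test, p = 1 and 0.206). With day as a covariate, 31 of 12869 genes were higher (0.241%) and 3 were lower (0.0233%). Most named genes among the 31 belong to T cells and NK cells, which the score also describes, among them Cd8a, Cd8b1, Lck, Cd2, Cd6, Ltb, Klrk1, Klre1, Klrc1, Klrd1, Nkg7, Ctsw, Fasl and 4 GIMAP genes. The 3 lower genes were Mapk4, Gm42940 and Gm14295. No gene passed when each day was fitted alone. Leaving out 1 tumor at a time gave between 0 and 51 genes. The count was 0 without CR tumor 4 or PR tumor 5 of day +3, 2 without CR tumor 1 of day +3 or PR tumor 3 of day +7, 8 without PR tumor 2 of day +7, and between 15 and 20 without PR tumor 2 or 3 of day +3 or PR tumor 1 or CR tumor 4 of day +7.

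Cd8a was at 6.72, 8.83 and 10.4 CPM in T cell-rich and at 1.90, 3.14 and 5.93 CPM in T cell-poor tumors at day +3. At day +7 it was at 44.7, 67.9 and 155 CPM against 11.97, 26.95 and 35.01 CPM. The groups did not overlap on either day, and the log2 difference over both days was 1.48 ± 0.24 (adjusted p = 0.0449).

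The later tumors come from other mice, so the 2 sets of values share no sample. Both sets were divided by the same score, however, so the direction of genes that follow the score was given by the rule in both. How much of the agreement below came from the shared rule was not tested. Of the 1357 genes higher at day −1, 1128 (83.1%) had the same sign later, against 50.3% of all genes measured in both. 28 genes passed in both, which is 2.06% of the day −1 list and 90.3% of the later 31. Of the 1117 genes lower at day −1, 695 (62.2%) had the same sign and 0 passed later by edgeR's quasi-likelihood test.

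For some genes, interferon gamma response genes among them, the difference between groups was smaller on the days after CY than at day −1. Those tumors were taken 13 and 17 days after inoculation, against 9 for day −1, and the series held no untreated tumor of those times. CY and time since inoculation therefore cannot be told apart. In a fit of all 46 tumors, chosen after seeing the data, the difference between groups was smaller later than at day −1 for 21 genes and larger for 2, Nek2 and Fignl1, among 13191 tested (0.174%), and 1666 genes had an unadjusted p below 0.05. That fit had no term for response. Of the 21, 5 were among the 28 interferon gamma list genes, 2 among the 10 regulatory T cell genes and 1 among the 10 monocyte genes. The list's median difference between groups was 1.44 at day −1, 0.70 at day +3 and 0.11 at day +7, while that of the T cell list was 0.80, 0.60 and 0.54, and no T cell list gene passed. Medians of other lists fell too, such as regulatory T cells (0.75, 0.34 and 0.11), cytotoxic cells (0.96, 0.61 and 0.28) and type I interferon (0.49, 0.13 and 0.07). Those of MHC class II (0.95, 1.03 and 0.25) and skin (0.76, 3.50 and 1.66) did not fall at day +3. The T cell list describes the same cells as the score that divided each day. No test compared the lists. The groups were not equally far apart in score on each day, and the part of this was not tested.

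Gbp11 shows how this looked tumor by tumor. It was at 5.33, 6.26 and 12.4 CPM in T cell-rich and at 4.30, 6.09 and 6.85 CPM in T cell-poor tumors at day +3. At day +7 it was at 232, 293 and 389 CPM against 197, 279.5 and 345 CPM. Groups that did not overlap before CY overlapped on both later days, and the difference between groups changed by −1.57 on the log2 scale from day −1 to the later days (adjusted p = 0.0676). For Il2ra the difference went from 0.97 at day −1 to 0.27 at day +3 and 0.11 at day +7 (change −0.78, adjusted p = 0.0859). For Cd8a the 3 differences were 1.06, 1.31 and 1.61 (change 0.40, adjusted p = 0.662). Gbp11 and Il2ra had been named for their low p-values at day −1, and the part of that choice in the change was not tested.

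**Figure D4:**
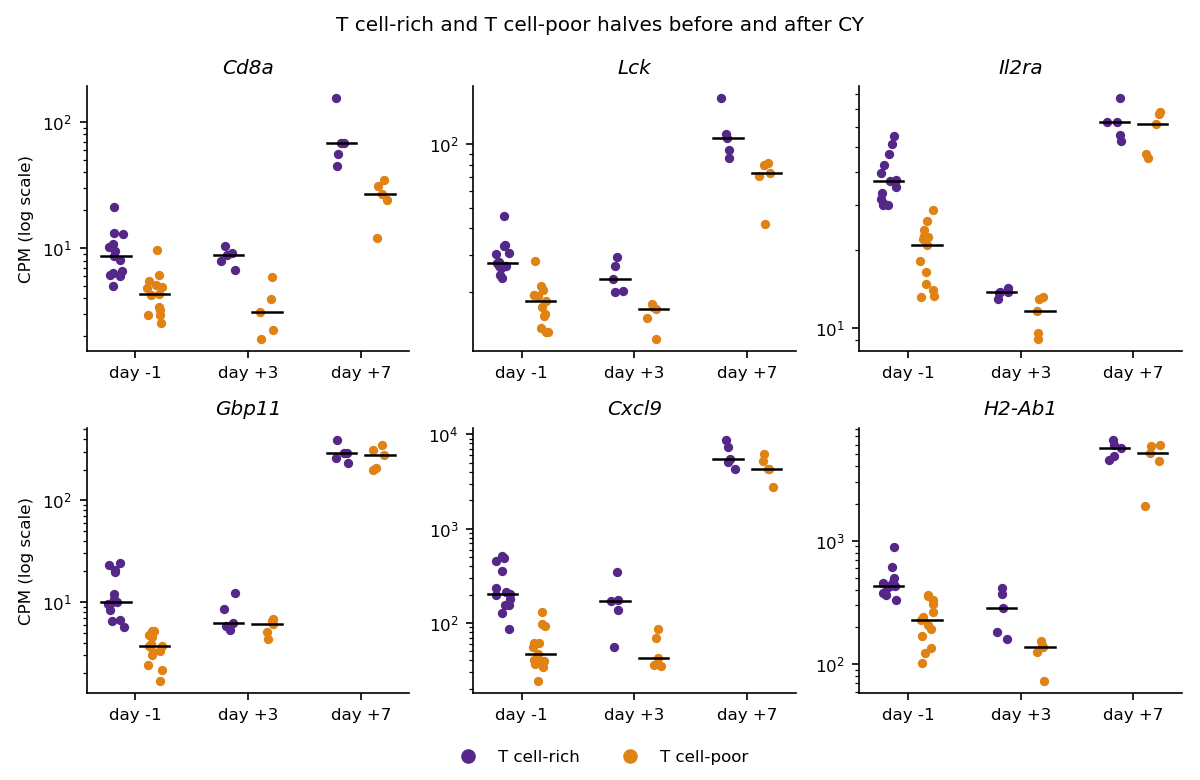
Log-scale CPM of 6 genes in T cell-rich and T cell-poor tumors at day −1 (13 per group) and at day +3 and day +7 (5 per group), each day divided by its own scores, with the later days scaled apart from day −1. Cd8a and Lck do not overlap between groups on either later day, while Gbp11 overlaps between groups at day +7, with medians of 293 and 279.5 CPM.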

How the data were processed

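RNA-seq of 46 tumors was analysed from the table the authors deposited, which holds estimated read counts per gene symbol as whole numbers, made with kallisto against GRCm38.p6. The kallisto version and the step from transcripts to genes are not given in the sources used here. The labels give single-end reads, and their stated length differs from that in the methods, so length was not used. The table runs in alphabetical order and stops within Pax7, so later symbols (Trac, Prf1, Tnf, Pdcd1, Ptprc and others) were not analysed here. Its 1 incomplete row was left out. Of the 46011 rows used, 30493 had a count above 0, and 13 names had been turned into dates. Every column was mapped to a sample by its title. The methods do not describe how near copies shared reads.

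The 26 tumors of day −1 were ranked by the score and the 13 highest were compared with the 13 lowest. Counts were filtered with filterByExpr, scaled by TMM and tested by edgeR 4.0.16's quasi-likelihood test (R 4.3.3) with Benjamini-Hochberg adjustment at FDR below 0.1, without covariates. Adjusted p-values, log2 differences (T cell-rich minus T cell-poor) and SE come from that fit. CPM used the TMM-scaled library sizes, except in the score. The 20 later tumors were divided within each day and fitted with day as a covariate, and their CPM were scaled apart from those of day −1. Pairs of genes were compared by permutation tests of log2 CPM with a prior count of 2 (scipy 1.17.1). Alternatives were DESeq2 1.42.0, its size factors in edgeR, other filters, a continuous score, other T cell genes, tumors left out, and the response label, title set, or skin, muscle or B cell scores as covariates. The muscle score alone, the removal of tumors high in Krt5, the removal of each tumor in turn and the fit of all 46 tumors were chosen after seeing the data. In simulated counts of 10629 genes the test recovered 52.2%, 76.9% and 92.1% of genes changed 1.25-, 1.5- and 2-fold. Genes were drawn independently of one another and no change below 1.25-fold was simulated. The recovery therefore does not cover genes that move together or smaller changes, such as those of most lower genes.

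The division, the 35 gene lists and the tests were chosen with earlier results of these data known. Genes named were drawn from the 12 lowest p-values among higher and among lower genes, from the 4 lowest of every list and from fixed markers. Gbp5, Igtp, Irf1, Il4, Gata3, Gzmc, Anxa3, the genes of the later comparisons and the 4 lower genes that changed at least 2-fold were added after their values were seen. 1 tumor per mouse was a replicate. Nothing was known of litters or batches, so p-values measure the spread between mice of 1 series.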

Additional observations from a re-analysis of the deposited data

Results flagged for a closer look

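In the later groups of 5 tumors, 36 groups were examined for a sample apart from the others, of which chance gives about 1 in 20. The lowest tumor of the T cell-poor group at day +7, CT7_6, had a score of 3.41 and 42.1 CPM of Lck. The highest T cell-rich tumor at day +7, CT7_7, had 155 CPM of Cd8a.

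The difference between groups changed from day −1 to the later days for 4 of the genes described, by the fit of all 46 tumors (edgeR's quasi-likelihood test, Benjamini-Hochberg adjusted over 13191 genes). The change was −1.60 on the log2 scale for Gbp10 (adjusted p = 0.0859), −1.57 for Gbp11 (adjusted p = 0.0676), −0.78 for Il2ra (adjusted p = 0.0859) and −1.20 for Fcgr4 (adjusted p = 0.0859). At day +7 the differences between groups were 0.18, 0.14, 0.11 and −0.04 for these genes, against 2.18, 1.84, 0.97 and 1.62 at day −1. All 4 had been named for low p-values at day −1, and the part of that choice in the change was not tested.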

How the results depend on the processing

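Of the 2474 genes passing at day −1, the count became 1094 with the response label as a covariate, 595 with skin and muscle scores, 576 with the muscle score alone, 152 with the B cell score (149 higher), 1491 and 97 within title numbers up to and above 14, and 4276 with the continuous score. Genes higher made up 54.9% of those passing, 65.7% with a minimum of 1 CPM, 68.2% with no filter, 62.9% at FDR below 0.05, 75.5% with the response label and 47.1% with the continuous score. The other alternatives gave between 1758 (FDR below 0.05) and 2888, and leaving out single tumors 1828 to 2735. The later 34 became 166 by DESeq2, 218 with the response label, 1 at FDR below 0.05, and 0 for day +3 only and for day +7 only (each by edgeR), and 0 to 51 without single tumors. Over both days 1156 genes had an unadjusted p below 0.05.

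For the genes named, Cd79a turned to 0.030 (title numbers above 14), 0.041 (skin and muscle scores), 0.054 (other T cell genes) and 0.083 (muscle score). Col1a1 turned to −0.011 (response label), −0.086 (skin and muscle), −0.093 (B cell score) and −0.097 (muscle score). Krt5 turned to −0.018 (skin and muscle) and −0.29 (B cell score). Gzmb minus Cd8a turned to 0.039 under log2(CPM + 1), and Foxp3 minus Cd4 to −0.028 without the 8 tumors nearest the boundary. None of these had passed. Among the genes named, the restriction to title numbers above 14 ended 60 calls, the B cell score 38, the muscle score 19 (also with the skin score), the response label 11 and title numbers up to 14 ended 7. The cause was not tested. No paired analysis was possible because title numbers only name tumors of different mice. Low counts limit Ifng and Glycam1.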
